A study of Mus musculus with 130 samples.

Results

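The mitochondrial ribosomal proteins of the mouse were followed in single 2-cell embryos cultured with SR1848, a small-molecule inhibitor of the orphan nuclear receptor Nr5a2 (LRH-1), or with DMSO. Members were all genes whose symbol is Mrpl or Mrps followed by a number, and 84 of 36134 genes met that rule, 52 with large subunit (Mrpl) and 32 with small subunit (Mrps) symbols. Of these, 6 are named as pseudogenes (Mrpl23-ps1, Mrpl27-ps, Mrpl48-ps, Mrps36-ps1, Mrps36-ps2 and Mrps36-ps3). Estimated counts of 349 transcripts were summed to the 84 genes, and 78 genes passed the filter on low counts. Zygotes of the B6129F1 cross, collected 5 hours and transferred 6 hours after fertilization, were cultured in KSOM medium without oil, in 10 µM SR1848 (80 embryos) or 0.1% DMSO (50 embryos). The sample titles mark the controls as NT, and the DMSO comes from their characteristics. Whether the SR1848 embryos also received DMSO as solvent is not stated. The submitters list 56 controls, of which 6 were not analysed here. The series asks what Nr5a2 does when the embryonic genome is first transcribed.

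Mitochondria carry their own ribosome, which translates only the few messages of the mitochondrial genome, all of them for subunits of the respiratory chain and the ATP synthase. Its RNAs come from mitochondrial DNA, but every one of its proteins is encoded in the nucleus, made in the cytosol and imported. Some of the proteins descend from those of the bacterial ribosome and others are found only in mitochondria. In the cleaving mouse embryo, mitochondria are inherited from the oocyte and remain structurally immature, and ribosomal protein genes are among those that the newly active genome transcribes.

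The estimated counts of an embryo totalled 2730852 to 7824458 with SR1848 and 3173683 to 8438537 with DMSO. The libraries were made from polyadenylated RNA with Smart-seq2, and the reads carry no molecular identifiers. Levels are given in CPM (counts per 1000000 counts of a library whose size was scaled with TMM factors, the trimmed mean of M-values), with SDs between embryos. Calls are edgeR quasi-likelihood calls at an adjusted p under 0.05 over 13222 genes, and they measure the spread between embryos, whose mother, drop and plate the labels do not give. The effect of any handling common to all embryos of a group cannot be told apart from that of SR1848. A lower share of a message in an embryo cannot be told apart from a larger share of other messages. The summed CPM of 11 oocyte markers were higher with SR1848 (5394 to 40720, median 13418) than with DMSO (1263 to 13048, median 4149). Of these markers 9 of 11 were called higher, as were all 8 of the 2-cell markers. The part that this difference in stored oocyte RNA has in the results below was not tested beyond a rescaling to oocyte transcripts, which moved the median log2 fold change of all tested genes to -0.70, against 0.24 with TMM. Cumulus markers summed to at most 19.6 CPM with SR1848 and 14.5 CPM with DMSO, and sperm markers to at most 12.1 CPM with SR1848 and 3.81 CPM with DMSO. Of 6 blood markers the 2 alpha-globin genes were called higher (list sum 59.5 to 673 CPM with SR1848 and 6.21 to 132 CPM with DMSO), while beta-globin Hbb-bt was at 0 and Hbb-bs, Ptprc and Alas2 averaged under 0.2 CPM in both groups.

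Promoters of 6 members are shown because they belong to the members with the largest falls (Mrpl12, Mrpl21), a fall with the Nr5a2 motif close to the start (Mrps18b), the largest rises (Mrpl2, Mrpl57) and a switch between transcript models (Mrps26). Each window holds the 250 bases before and the 50 bases after a RefSeq start on GRCm38.p6, 5′ to 3′ on the strand of the gene. Capitals mark matches, on either strand, to GCGCA and GCGC with any 1 base between them (NRF1), CCGGAAG (GABPA), AANATGGCG (YY1) or CAAGGNCA (Nr5a2), none of which contains another.
Mrpl12 chr11:120484387-120484686 plus strand: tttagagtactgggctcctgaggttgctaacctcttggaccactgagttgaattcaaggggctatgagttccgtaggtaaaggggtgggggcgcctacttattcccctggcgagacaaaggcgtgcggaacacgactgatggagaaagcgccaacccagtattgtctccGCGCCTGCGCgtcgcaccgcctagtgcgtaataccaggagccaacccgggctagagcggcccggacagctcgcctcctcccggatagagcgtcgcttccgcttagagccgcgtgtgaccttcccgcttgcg
Mrpl21 chr19:3282792-3283091 plus strand: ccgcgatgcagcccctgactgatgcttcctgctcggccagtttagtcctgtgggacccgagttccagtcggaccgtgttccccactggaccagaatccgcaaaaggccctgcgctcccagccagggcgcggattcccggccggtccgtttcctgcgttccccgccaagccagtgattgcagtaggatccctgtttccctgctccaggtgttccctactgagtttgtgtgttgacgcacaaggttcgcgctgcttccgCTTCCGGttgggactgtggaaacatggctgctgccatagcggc
Mrps18b chr17:35916391-35916690 minus strand: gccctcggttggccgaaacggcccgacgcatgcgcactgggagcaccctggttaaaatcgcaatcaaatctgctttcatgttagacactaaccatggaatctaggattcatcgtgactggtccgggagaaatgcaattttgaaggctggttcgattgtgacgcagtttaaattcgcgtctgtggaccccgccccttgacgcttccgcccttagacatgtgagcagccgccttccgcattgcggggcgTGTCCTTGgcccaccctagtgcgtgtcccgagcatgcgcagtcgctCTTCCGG
Mrpl2 chr17:46645971-46646270 plus strand: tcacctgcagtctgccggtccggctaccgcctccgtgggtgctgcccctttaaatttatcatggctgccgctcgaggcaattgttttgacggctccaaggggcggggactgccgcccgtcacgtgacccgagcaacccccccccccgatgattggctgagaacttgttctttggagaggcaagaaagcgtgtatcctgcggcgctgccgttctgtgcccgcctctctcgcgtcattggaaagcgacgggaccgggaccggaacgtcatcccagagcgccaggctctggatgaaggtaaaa
Mrpl57 chr14:57825989-57826288 plus strand: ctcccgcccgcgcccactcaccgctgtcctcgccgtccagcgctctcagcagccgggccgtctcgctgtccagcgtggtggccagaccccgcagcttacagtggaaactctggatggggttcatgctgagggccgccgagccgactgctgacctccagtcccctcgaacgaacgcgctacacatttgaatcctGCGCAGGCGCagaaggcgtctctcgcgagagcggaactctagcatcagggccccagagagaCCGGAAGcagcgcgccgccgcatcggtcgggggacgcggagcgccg
Mrps26 chr2:130563507-130563806 plus strand: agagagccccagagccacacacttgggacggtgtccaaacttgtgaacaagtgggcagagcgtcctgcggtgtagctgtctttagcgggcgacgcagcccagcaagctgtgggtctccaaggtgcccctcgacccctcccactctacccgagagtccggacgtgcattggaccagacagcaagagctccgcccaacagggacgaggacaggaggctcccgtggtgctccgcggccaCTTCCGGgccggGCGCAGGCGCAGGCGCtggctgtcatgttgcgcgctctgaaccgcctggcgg

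RefSeq gave promoters for 69 of the 78 members not named as pseudogenes, 75 windows in all. The GABPA motif stood in the promoters of 26 members (37.7%), against 19.6% of 9893 tested genes, and the NRF1 motif in 13 (18.8%), against 11.3%. The YY1 motif stood in 11 members (15.9%), against 5.89% of tested genes. Its matches lay before the start only in Mrps11 (-108) and Mrpl36 (-31). In the other members they lay after it, from position 8 (Mrpl27) to 36 (Mrps24). The GABPA, NRF1 and YY1 motifs belong to factors known from human cells to act on nuclear genes for mitochondrial proteins. The Nr5a2 motif stood in the promoters of 5 members (7.25%), against 6.02% of tested genes and 7.64% of all 27025 genes with a window. These were Mrps15, Mrps18b, Mrps21, Mrpl39 and Mrpl55, all of them called lower, as were 49 of the 69 members with a promoter. Mrpl55 had no call with upper-quartile factors (log2 fold change -0.16). By call, the Nr5a2 motif stood in 10.2% of 49 lower members, in 0 of 10 higher ones and in 0 of 9 without a call. With 5 members holding the motif in all, this split rests on too few genes to be read, and it was not tested. The GABPA motif stood in 34.7% of the lower and 40% of the higher members, the NRF1 motif in 20.4% and 20%, and the YY1 motif in 12.2% and 20%. In the 9 members without a call these 3 motifs stood in 55.6% (GABPA), 11.1% (NRF1) and 33.3% (YY1). In Mrpl57, which was higher with SR1848, both motifs are present, and in Mrpl2 none of the 4 was found. A match is a match of letters only, and no binding was measured.

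Messages of mitochondrial ribosomal proteins were mostly lower with SR1848. Of the 78 tested members 57 were called lower and 12 higher, where 36.5% of all tested genes were called lower and 45.6% higher (82.1% in either direction). Among large subunit symbols 37 of 49 were lower and 8 higher, with a median log2 fold change of -1.07. Among small subunit symbols 20 of 29 were lower and 4 higher, with a median of -0.97. The median of all tested genes was 0.24 and that of the 78 members was -0.99. A fall of at least 2-fold was called in 38 members, 25 of the large and 13 of the small subunit, against 25.8% of all tested genes. A rise of at least 2-fold was called in 3, all with Mrpl symbols, against 28.2% of all genes.

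Most falls held under each scaling tried, and most rises under all but the oocyte scaling. Members called higher numbered 10 with RLE factors, 15 with upper-quartile factors and 9 with total counts. Of the 47 tested genes of the oocyte scaling 39 were themselves called higher with TMM (median log2 fold change 0.83). That scaling thus lowers nearly all fold changes, and it could not test falls and rises alike. All 57 lower members were called lower under it, and 48 were called lower under all 5 scalings. Of the 12 higher members only Mrpl2 was still called higher under the oocyte scaling, 9 had no call and 2, Mrpl24 and Mrps23, were called lower. The share of all tested genes called lower was 36.5% with TMM, 39.9% with total counts, 32.2% with upper-quartile factors and 57.3% with the oocyte scaling. The share called higher was 45.6%, 40.1%, 51.1% and 16.5% in that order. The distance of the members from the median of all genes was -1.22 with TMM and -1.25 with the oocyte scaling, on the log2 scale. A scaling moves the fold changes of all genes by nearly the same amount. This distance can therefore hardly change with it and is no check of the scaling.

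**Figure D1:**
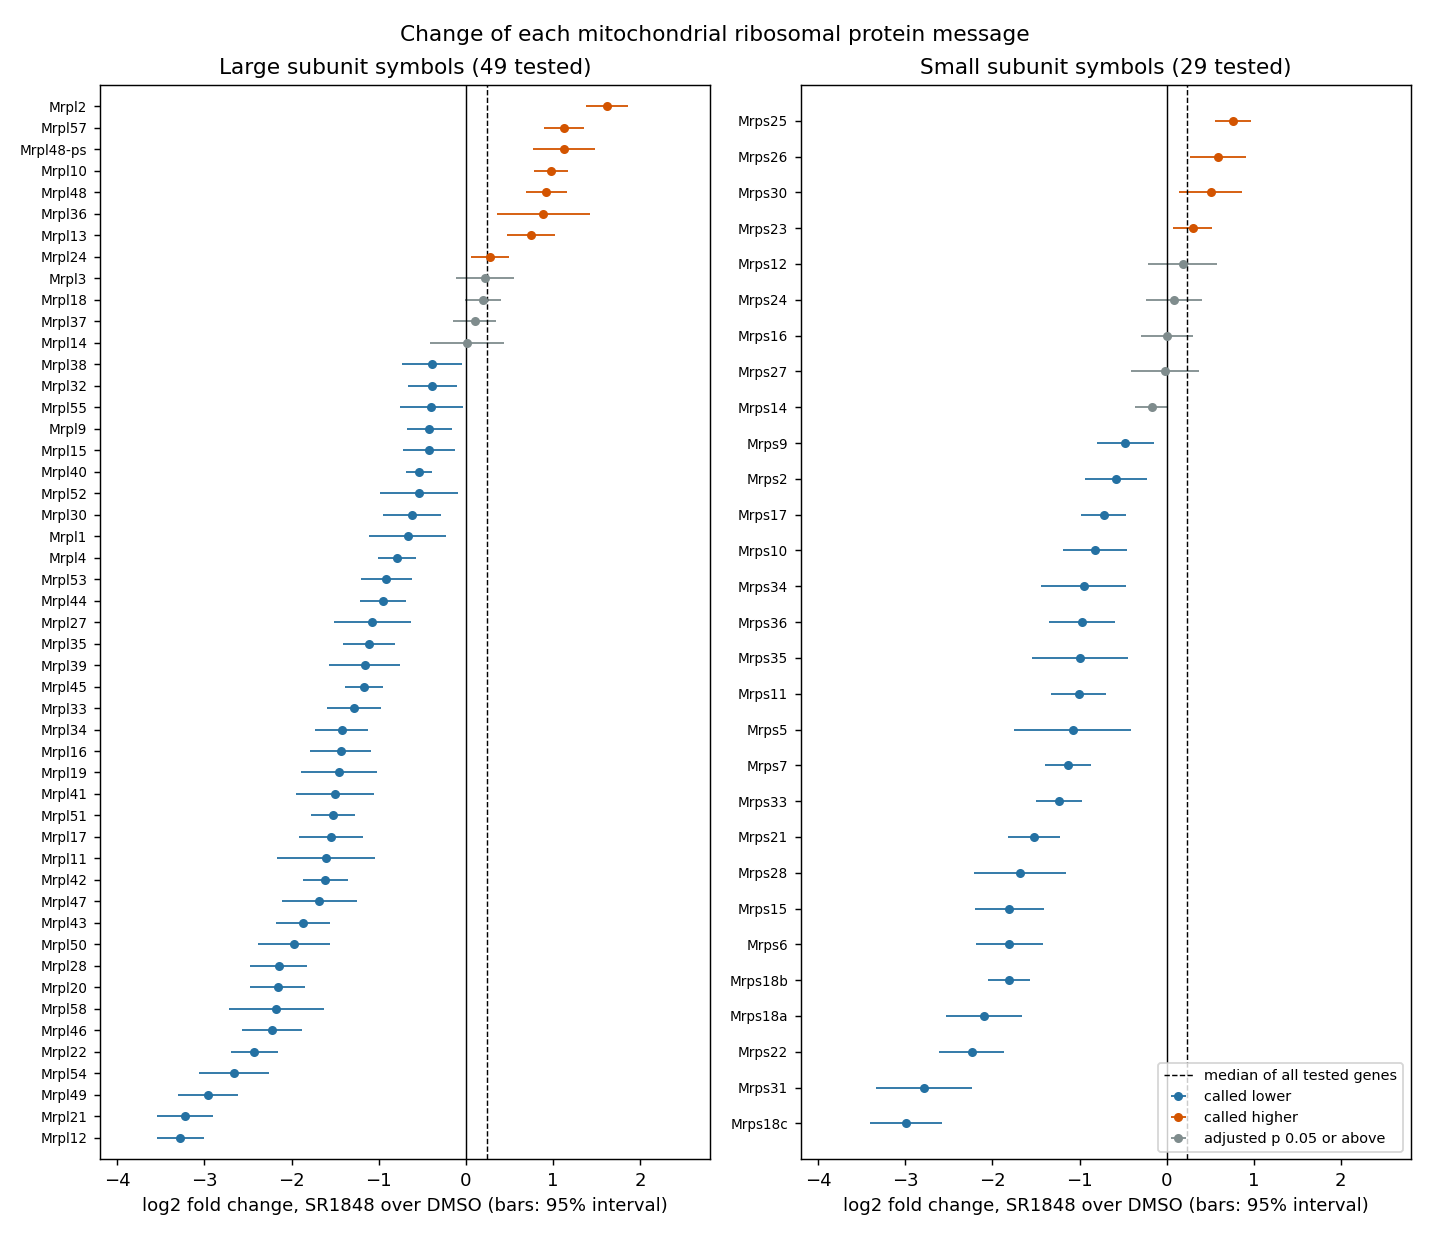
Log2 fold change of every tested member, SR1848 over DMSO, with 95% intervals, for large (left, 49 genes) and small subunit symbols (right, 29 genes); 57 members lie on the lower side as called genes. The dashed line is the median of all tested genes (0.24); of the 12 higher members only Mrpl2 kept its call after scaling to oocyte transcripts.

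The largest fall was that of Mrpl12 (ENSMUSG00000039640, chromosome 11, 120484613 to 120489065 in GENCODE M21 on GRCm38). It encodes the homologue of the bacterial stalk protein that recruits translation factors to the ribosome. Its lowest, median and highest values were 0.239, 9.03 and 32.2 CPM in SR1848 embryos, against 53.2, 93.7 and 210 CPM in DMSO embryos. The mean was 10.5 ± 6.26 CPM with SR1848 (n = 80) and 102 ± 35 CPM with DMSO (n = 50), a 9.69-fold fall (log2 fold change -3.28 with SE 0.138, and edgeR adjusted p = 4.83e-48). No SR1848 embryo reached the lowest control.

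Mrpl21 (chromosome 19, 3282901 to 3292837), a large subunit protein with a bacterial homologue, was lowered almost as far. Its lowest, median and highest values were 0, 4.22 and 15.7 CPM with SR1848, against 17.1, 46 and 78.2 CPM with DMSO (log2 fold change -3.22, SE 0.163, edgeR adjusted p = 5.51e-40). Again the 2 groups did not overlap. Exons of Mrpl21 overlap those of Ighmbp2 on the opposite strand, and without strand information reads of the overlap cannot be assigned to either. Mrpl12 and Mrpl21 were the only members whose SR1848 embryos all lay below every control, which held for 1.69% of all tested genes. No member had all SR1848 embryos above every control, against 0.0151% of all genes.

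Several proteins of the large subunit with no bacterial counterpart followed. Mrpl49 stood at 0.188, 7.27 and 29.3 CPM (lowest, median, highest) with SR1848 and at 25.5, 67.4 and 131 CPM with DMSO (log2 fold change -2.96), and 77 of 80 SR1848 embryos lay below every control. Its exons overlap Syvn1 on the opposite strand. Mrpl54 stood at 0, 2.41 and 12.3 CPM with SR1848 and at 2.50, 17.3 and 38.1 CPM with DMSO (log2 fold change -2.67). Here the groups overlapped, with 41 SR1848 embryos below every control. Mrpl46 stood at 0, 12.7 and 47.7 CPM with SR1848 and at 32.5, 63.7 and 158 CPM with DMSO (log2 fold change -2.23). It is read next to Mrps11, whose exons it overlaps on the opposite strand and which was also lower (log2 fold change -1.01).

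Mrpl22, whose bacterial homologue lines the tunnel through which the new chain leaves the ribosome, stood at 1.38, 12.2 and 42 CPM with SR1848 and at 23, 69 and 170 CPM with DMSO (log2 fold change -2.43). In 70 of 80 SR1848 embryos it was below every control. Mrpl20, an early assembly protein in bacteria, stood at 0.496, 18.7 and 85.7 CPM with SR1848 and at 37.3, 100 and 248 CPM with DMSO (log2 fold change -2.16). Mrpl58 (Ict1), a peptidyl-tRNA hydrolase that frees stalled mitochondrial ribosomes, stood at 0, 2.68 and 14 CPM with SR1848 and at 3.34, 15.7 and 47.3 CPM with DMSO (log2 fold change -2.17). It was detected in 62 of 80 SR1848 embryos and in all 50 controls. In 14 of the 49 tested large subunit members, at least 40 of the 80 SR1848 embryos lay below every control, as in 8 of the 29 small subunit members, where 15.1% of all tested genes did.

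The other called large subunit members fell by less, down to Mrpl38 and Mrpl32 (both -0.38) on the log2 scale. Mrpl40 (106 ± 31 CPM with SR1848 and 154 ± 37.2 CPM with DMSO) and Mrpl4 (74.8 ± 32.4 CPM and 129 ± 38.2 CPM), which with Mrpl18 have the most counts in the large subunit, were lower by 0.53 and 0.79 on the log2 scale. Mrpl38, a mitochondria-specific protein, had a log2 fold change of 0.50 when only protein-coding transcripts were counted, a count under which 35.3% of 12375 tested genes were lower and 46.8% higher.

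Of the 8 large subunit rises, that of Mrpl2 was the largest and the only one called under every scaling. Mrpl2 (chromosome 17, 46646229 to 46650139) encodes the homologue of the bacterial protein beside the catalytic centre of the ribosome. Its lowest, median and highest values were 16.2, 112 and 284 CPM with SR1848, against 17, 38.8 and 67.3 CPM with DMSO. The mean was 121 ± 56.7 CPM with SR1848 and 39.3 ± 11.6 CPM with DMSO, 3.08-fold higher (log2 fold change 1.62, SE 0.122, edgeR adjusted p = 3.15e-25, and 0.81 under the oocyte scaling). In 67 of 80 SR1848 embryos it exceeded every control, and 1 lay below all of them.

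Mrpl57, a mitochondria-specific protein with a very short message, stood at 29.8, 91.5 and 246 CPM with SR1848 and at 23.5, 45.2 and 82.9 CPM with DMSO (log2 fold change 1.13, without a call under the oocyte scaling, 0.28). In 46 of 80 SR1848 embryos it was above every control. Mrpl10 encodes the protein that anchors Mrpl12 to the ribosome. It stood at 27.5, 71.9 and 154 CPM with SR1848 and at 15, 35.9 and 66.8 CPM with DMSO (log2 fold change 0.98, but -0.041 under the oocyte scaling), and 46 SR1848 embryos were above every control. The messages of these 2 stalk proteins thus changed order per length, in TPM (a level that divides counts by transcript length). Mrpl10 averaged 68.2 TPM and Mrpl12 12.9 TPM with SR1848, whereas Mrpl10 averaged 38.2 TPM and Mrpl12 135 TPM with DMSO. The proteins were not measured. Mrpl2, Mrpl57 and Mrpl10 were the members with at least 40 SR1848 embryos above every control, against 8.55% of all tested genes.

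Mrpl48 (log2 fold change 0.93), Mrpl36 (0.89), Mrpl13 (0.75) and Mrpl24 (0.28) were also called higher, each without that call under the oocyte scaling (-0.066, 0.055, -0.16 and -0.65, the last called lower). Mrpl24 also had no call with RLE factors (0.16) and total counts (0.088). All 4 share exon sequence with another expressed gene on the opposite strand: Rab6a, Ndufs6, Mtbp and Rrnad1. Mrpl48-ps, a pseudogene, was also higher (log2 fold change 1.12, and 0.12 without a call under the oocyte scaling), and shared sequence leaves the division of counts between it and Mrpl48 uncertain. Of the 4 large subunit members without a call, Mrpl18 stood at 157 ± 66.2 CPM with SR1848 and 137 ± 33.1 CPM with DMSO (log2 fold change 0.20). Its counts are uncertain, because its exons overlap Tcp1 on the opposite strand, at a mean of 308 CPM. Mrpl14 (0.016), Mrpl37 (0.10) and Mrpl3 (0.22) made up the rest.

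**Figure D2:**
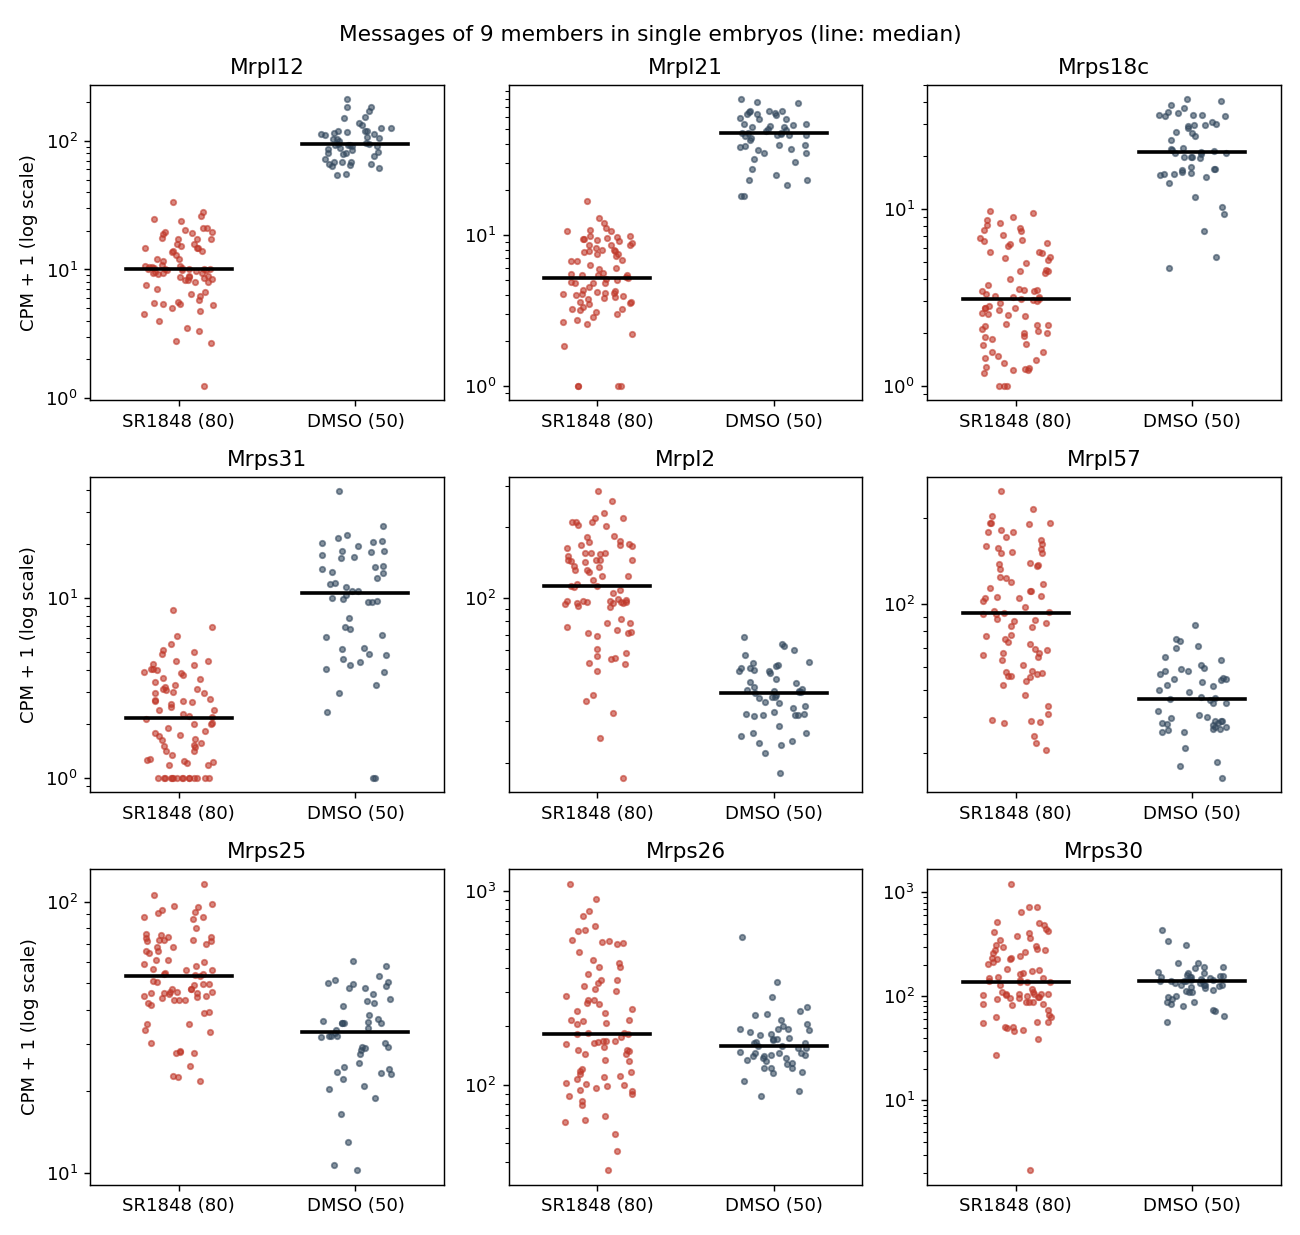
CPM + 1 on a log axis in every SR1848 (left in each panel, 80) and DMSO embryo (right, 50) for 9 members; black lines are medians. Mrpl12 and Mrpl21 do not overlap between the groups, whereas Mrps26 and Mrps30 have medians close together and a far wider spread with SR1848; under the oocyte scaling Mrps25, Mrps26 and Mrps30 had negative log2 fold changes without a call.

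In the small subunit the largest fall was that of Mrps18c (chromosome 5, 100798627 to 100804471). Mammals have 3 descendants of the bacterial S18 protein, and in the mammalian structures they sit at different places: Mrps18c at the ancestral site, Mrps18b elsewhere in the small subunit, and Mrps18a in the large subunit. All 3 messages fell. Mrps18c stood at 0, 2.09 and 8.73 CPM (lowest, median, highest) with SR1848, against 3.62, 20.1 and 40.6 CPM with DMSO (log2 fold change -2.99, SE 0.209, edgeR adjusted p = 1.09e-27), and 57 of 80 SR1848 embryos were below every control. Mrps18a stood at 0, 3.05 and 12.5 CPM with SR1848 and at 0.958, 15.9 and 39 CPM with DMSO (log2 fold change -2.10). Mrps18b stood at 0, 20.2 and 48.4 CPM with SR1848 and at 34.4, 71.5 and 123 CPM with DMSO (log2 fold change -1.81), with 72 of 80 SR1848 embryos below every control. Per length, Mrps18b was the most abundant of the 3 in both groups (33.6 TPM with SR1848 and 123 TPM with DMSO).

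Mrps31 and Mrps22, both mitochondria-specific, followed. Mrps31 stood at 0, 1.16 and 7.63 CPM with SR1848 and at 0, 9.64 and 38.1 CPM with DMSO (log2 fold change -2.79), so that the groups overlapped at 0. Mrps22, mutations of which cause a mitochondrial disorder in humans, stood at 0, 12.9 and 77.7 CPM with SR1848 and at 25.1, 67.5 and 140 CPM with DMSO (log2 fold change -2.24), with 65 of 80 SR1848 embryos below every control. Mrps6 (-1.81), Mrps15 (-1.81) and Mrps28 (-1.68), which have bacterial homologues, fell alike on the log2 scale. Exons of Mrps6 overlap Slc5a3 on the same strand, which leaves its counts uncertain. Mrps7, whose bacterial homologue starts the assembly of a domain of the small subunit, had the most counts of the lower small subunit messages, with 90.7 ± 62.9 CPM with SR1848 and 199 ± 60.4 CPM with DMSO (log2 fold change -1.13). Its exons overlap Gga3, at a mean of 317 CPM, and Mif4gd on the opposite strand, which leaves its counts uncertain. Mrps36, which is now regarded as a component of the 2-oxoglutarate dehydrogenase complex and not of the ribosome, was at 3.67 ± 2.73 CPM with SR1848 and 7.21 ± 3.48 CPM with DMSO (log2 fold change -0.97).

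The 4 small subunit symbols called higher were Mrps25 (log2 fold change 0.76), Mrps26 (0.59), Mrps30 (0.50) and Mrps23 (0.30), and none kept the call under the oocyte scaling (-0.14, -0.12, -0.25 and -0.68, the last called lower). The call of Mrps23 was also lost with RLE factors, total counts, no filter, limma-voom and DESeq2, and that of Mrps30 with total counts. Mrps25 stood at 20.8, 52.4 and 116 CPM with SR1848 and at 9.23, 32.2 and 59.5 CPM with DMSO, and 30 SR1848 embryos exceeded every control. Its exons overlap Nr2c2 on the opposite strand. Mrps30, a large subunit protein by its place in the ribosome, stood at 1.12, 137 and 1216 CPM with SR1848 and at 56.2, 139 and 431 CPM with DMSO. The medians nearly coincided, while 8 SR1848 embryos lay above and 11 below every control. Mrps26 stood at 35.3, 181 and 1086 CPM with SR1848 and at 86.6, 158 and 576 CPM with DMSO, with 7 SR1848 embryos above and 8 below every control. In both, the medians of the groups were close relative to the spread with SR1848, and limma-voom, which works on log values, called neither (log2 fold changes 0.26 and 0.095).

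Small subunit members without a call included Mrps12, whose bacterial homologue takes part in decoding, at 28.7 ± 24.4 CPM with SR1848 and 25.2 ± 10.2 CPM with DMSO (log2 fold change 0.18). Mrps24 (log2 fold change 0.083), Mrps16 (0.0039), Mrps27 (-0.017) and Mrps14 (-0.17) were the others. For all 9 members without a call, 4 large and 5 small, the sign of the log2 fold change differed between the 5 scalings. All 9 were called lower under the oocyte scaling. Mrps14 was also called lower with RLE factors (-0.30) and total counts (-0.37), and Mrpl3, Mrpl18 and Mrpl37 were called higher with upper-quartile factors (0.43, 0.42 and 0.31).

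Proteins with and without bacterial ancestry were both mostly lower. Of 45 tested members with a bacterial homologue 33 were lower and 5 higher, with a median log2 fold change of -0.82. Of 32 tested mitochondria-specific members 24 were lower and 6 higher, with a median of -1.08. When pseudogenes were left out and Mrps30 and Mrps18a were counted with the large subunit, 38 of 50 large and 19 of 27 tested small subunit members were lower, with Mrps36 still among the small ones.

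The summed level of each subunit was lower with SR1848, but less so than the median member. Large subunit messages summed to 1507 ± 360 CPM with SR1848 (lowest 867, median 1510, highest 2502) and 2372 ± 348 CPM with DMSO (1489, 2381 and 3194), a log2 ratio of the means of -0.65. Of the 80 SR1848 embryos 78 lay below the DMSO median and 35 below every control. Small subunit messages summed to 1026 ± 404 CPM with SR1848 (531, 904 and 2538) and 1306 ± 239 CPM with DMSO (946, 1261 and 2141), a log2 ratio of -0.35. Here 65 SR1848 embryos were below the DMSO median and 45 below every control. The gap between the subunits depended on the naming. With Mrps30 and Mrps18a counted in the large subunit and pseudogenes left out, the log2 ratios were -0.56 for the large and -0.49 for the small subunit. Mrps26 and Mrps30 made up much of the small subunit sum by symbol. Without these 2 genes, left out after their values were seen, the sum was 559 ± 130 CPM with SR1848 and 987 ± 152 CPM with DMSO (log2 ratio -0.82), and 69 SR1848 embryos were below every control. Under the oocyte scaling the log2 ratios were -1.57 for the large and -1.18 for the small subunit.

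**Figure D3:**
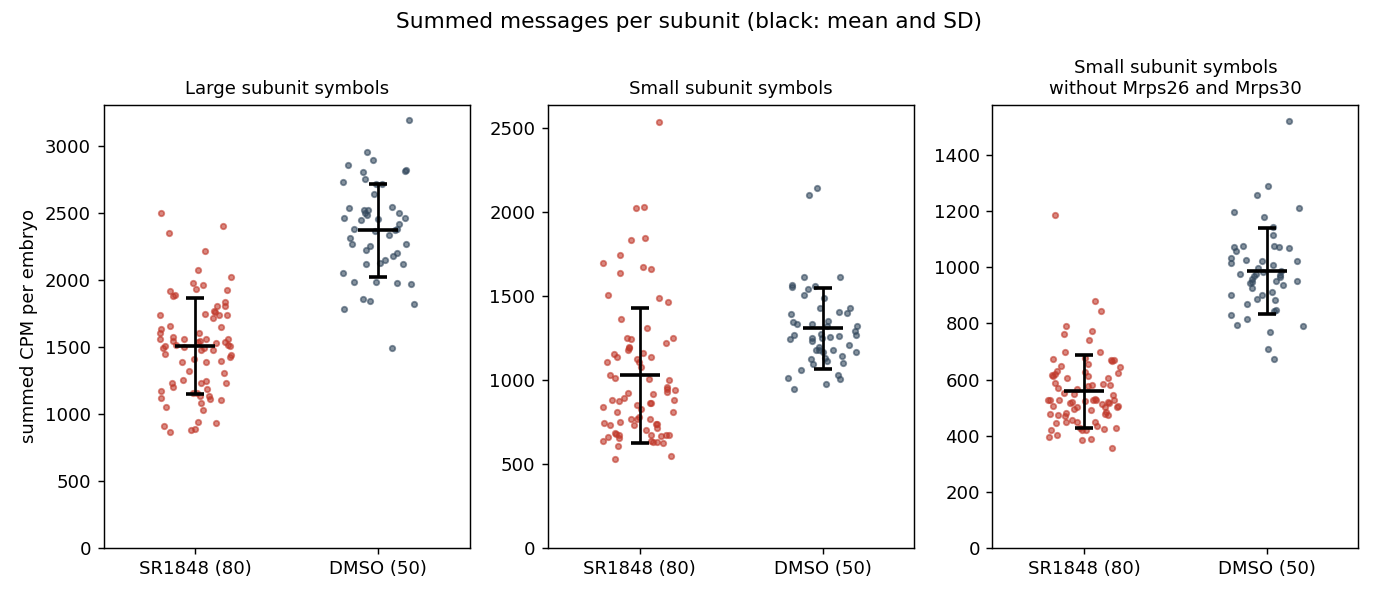
Summed CPM per embryo of large subunit symbols, small subunit symbols, and small subunit symbols without Mrps26 and Mrps30, for SR1848 (left, 80) and DMSO embryos (right, 50); black marks are means and SDs. The means are 1507 against 2372, 1026 against 1306 and 559 against 987 CPM.

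Per transcript length the sums of both subunits were lower by similar amounts. In TPM, computed here with GENCODE M21 lengths, the large subunit summed to 2165 ± 556 with SR1848 and 4067 ± 587 with DMSO (log2 ratio -0.91), and the small subunit to 1104 ± 346 with SR1848 and 1997 ± 355 with DMSO (log2 ratio -0.85). With few exceptions a ribosome holds 1 copy of each protein, but the levels of the messages were unequal. Among 48 large subunit members the mean level per length ran from 3.42 TPM (Mrpl47) to 258 TPM (Mrpl57) with SR1848 and from 7.90 TPM (Mrpl1) to 299 TPM (Mrpl20) with DMSO. Among 29 small subunit members it ran from 1.52 TPM (Mrps31) to 161 TPM (Mrps24) with SR1848 and from 6.72 TPM (Mrps5) to 232 TPM (Mrps26) with DMSO. The SD of the log2 level among members was 1.65 with SR1848 and 1.36 with DMSO in the large subunit, and 1.76 and 1.38 in the small subunit. Mrpl57, at 258 TPM with SR1848 against 127 TPM with DMSO, headed the large subunit in SR1848 embryos. Mrps26 and Mrpl13, higher in CPM with TMM, were lower per length: Mrps26 stood at 126 TPM with SR1848 and 232 TPM with DMSO, and Mrpl13 at 27.6 TPM and 44.6 TPM.

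That disagreement came with a change in which transcript models took the counts. Of 40 members with at least 2 tested transcripts, 7 (17.5%) had one model called lower and another called higher, against 16.3% of all such genes. They were Mrpl13, Mrpl15, Mrpl33, Mrpl40, Mrps14, Mrps17 and Mrps26. Compared in each were the higher model with the most counts in SR1848 embryos and the lower model with the most counts in DMSO embryos. Each model was thus picked through the group in which it is high. In each of the 7 the higher model was the longer, whereas over all genes with opposed models the higher one was the longer in 51.3% of 1045. In 5 of the 7 the higher model also ended further downstream, against 34.9% of 1044 genes with opposed models and annotated ends.

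Mrps26 (chromosome 2, 130563742 to 130568695), a mitochondria-specific protein of the small subunit, had the most counts among these 7. Its short model, of 1057 bases and annotated as retaining an intron, stood at 0, 7.62 and 227 CPM with SR1848 and at 43.5, 114 and 512 CPM with DMSO (log2 fold change -2.11, SE 0.355, edgeR adjusted p over transcripts 6.95e-08). Its long model, of 4278 bases, protein-coding and ending 3301 bases further downstream, stood at 16.6, 146 and 1026 CPM with SR1848 and at 14.3, 39.2 and 103 CPM with DMSO (log2 fold change 2.48, SE 0.210, edgeR adjusted p over transcripts 2.84e-21). The long model held a median of 96.2% of the counts of both with SR1848 (lowest 18.2%) and 22.8% with DMSO (highest 55.2%). The authors' deposited table gives log2 fold changes of -2.38 for the short and 2.17 for the long model. Estimated counts divide reads between models that share sequence, so these values describe the division and not molecules.

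In Mrpl40 both models are protein-coding and end 208 bases apart. The longer model held a median of 61.6% of the counts of both with SR1848 (45.3% to 83.7%) and 36.5% with DMSO (25.3% to 51.8%). In Mrpl13 and Mrpl15 the higher model is annotated as retaining an intron and ends upstream of the other. Its share of the counts of both models had a median of 89.2% with SR1848 and 56.3% with DMSO in Mrpl13, and of 75.6% with SR1848 and 14.9% with DMSO in Mrpl15. When only protein-coding transcripts were counted, the log2 fold change of Mrpl13 was -0.82, and that of Mrps26 was 2.61. In Mrpl33 the protein-coding model stood at a median of 0 CPM with SR1848 and 6.33 CPM with DMSO (log2 fold change -3.67), and a model annotated as a target of nonsense-mediated decay at 2.34 CPM and 0.827 CPM (1.33). Mrps14 and Mrps17, whose higher models end 2350 and 4159 bases further downstream, had medians of 36.2% and 57.7% with SR1848 and 22.8% and 23% with DMSO.

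**Figure D4:**
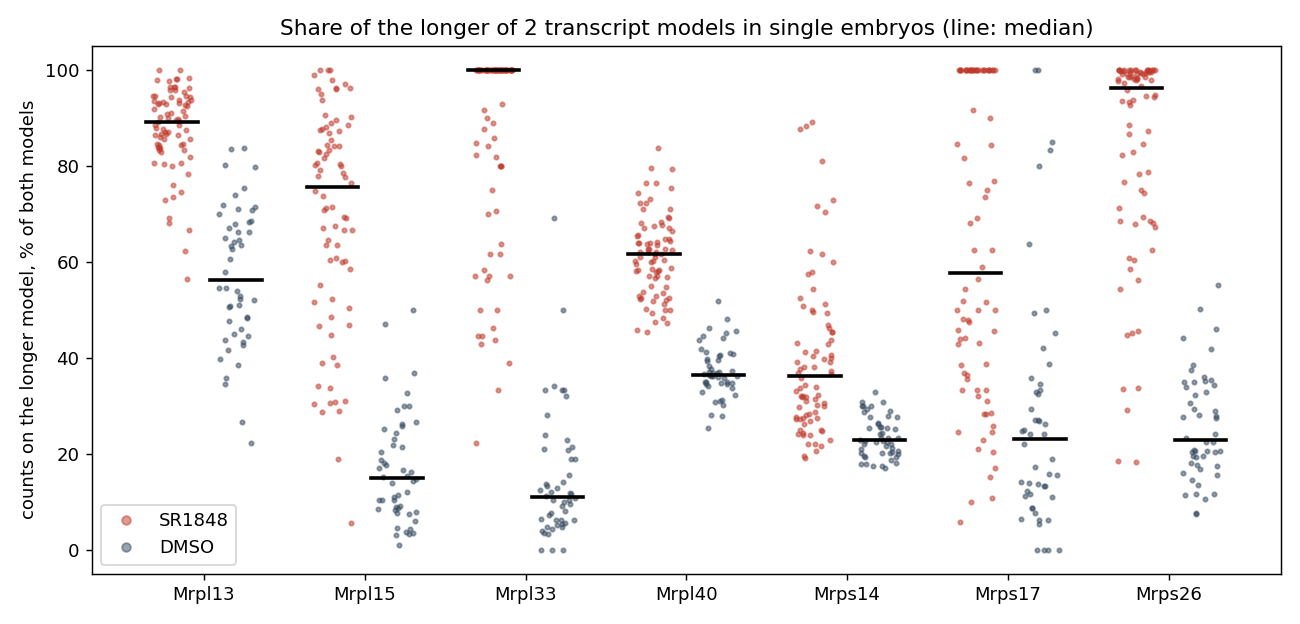
Counts on the longer of 2 opposed transcript models as a percentage of the counts of both, in each SR1848 (red, left) and DMSO embryo (grey, right), for the 7 members with opposed models; black lines are medians. In Mrps26 the medians are 96.2% and 22.8%.

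Over all 154 tested transcripts of members 90 were called lower and 28 higher, against 33.7% and 40.6% of 26047 transcripts. In the authors' deposited table an adjusted p is given for 292 member transcripts, of which 153 are lower and 24 higher at 0.05, and of the 118 called here 117 have the same sign there.

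Embryos differed more among themselves with SR1848. The median coefficient of variation of the 77 tested members that are not pseudogenes was 0.706 with SR1848 and 0.415 with DMSO, and it was larger with SR1848 in 75 of the 77 (97.4%), against 79.6% of all tested genes. For 5247 genes of like level the medians were 0.686 with SR1848 and 0.491 with DMSO, and the coefficient was larger with SR1848 in 82.2% of them. Among the 2175 of these genes called lower it was larger with SR1848 in 96.6%, a share close to that of the members, most of which were also lower. Large and small subunit sums were positively correlated across the embryos of each group, as a description: Pearson's r was 0.43 (Spearman's rho 0.47) over 80 SR1848 embryos and 0.50 (0.63) over 50 DMSO embryos, and 0.36 and 0.43 without the 2 embryos farthest from the median. Without Mrps26 and Mrps30 in the small subunit sum, Pearson's r was 0.56 over SR1848 and 0.74 over DMSO embryos. The sums share each embryo's library and scaling. The small subunit sum was lower in embryos with a larger percentage of counts on oocyte transcripts, with r of -0.67 over SR1848 and -0.34 over DMSO embryos, and the large subunit sum had -0.40 and -0.42. With total counts the sums had r between -0.12 and 0.18.

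Of the 6 members that were not tested, Mrpl23, a large subunit protein at the tunnel exit in bacteria, stood at 2.62 ± 5.40 CPM with SR1848 and 1.46 ± 1.44 CPM with DMSO, and was detected in 67 of 80 and 38 of 50 embryos. Mrpl23-ps1, which resembles it, stood at 1.30 ± 1.63 CPM with SR1848 and 1.81 ± 1.82 CPM with DMSO. The other 4 pseudogenes averaged under 0.5 CPM in both groups. Exons of 18 members overlap those of another expressed gene on the opposite strand and those of 3 (Mrps6, Mrps24 and Mrps34) on the same strand, counting genes with a mean of at least 1 CPM.

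Proteins of the mitochondrial ribosome with other symbols were divided with TMM. Of 5 tested, Gadd45gip1 (-0.97) and Ptcd3 (-0.79) were lower on the log2 scale, and Chchd1 (1.28), Dap3 (0.36) and Aurkaip1 (0.25) were higher. Aurkaip1 had no call with RLE factors (0.15) and total counts (0.088). Of the 5, 2 were higher with RLE factors and 1, Chchd1, with total counts. No call for a rise was left under the oocyte scaling, where 4 of the 5 were lower. Of 27 factors that modify and assemble mitochondrial ribosomal RNA and subunits, 15 were lower (55.6%) and 8 higher (29.6%), with a median log2 fold change of -0.54. Of all tested genes 36.5% were lower and 45.6% higher. Trub2, a pseudouridine synthase, stood at 5.18 ± 5.61 CPM with SR1848 and 104 ± 35.6 CPM with DMSO (log2 fold change -4.31). Every SR1848 embryo was below every control, which held for 1.69% of all tested genes. Mrm3, an RNA methyltransferase of the large subunit, stood at 0.893 ± 1.63 CPM with SR1848 and 17.8 ± 9.86 CPM with DMSO (log2 fold change -4.27). Nsun4, a methyltransferase that is also needed for the subunits to join, had the most counts of the list and was higher, at 504 ± 231 CPM with SR1848 and 207 ± 68 CPM with DMSO (log2 fold change 1.28, and 0.27 under the oocyte scaling).

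Of 15 mitochondrial translation factors 9 were lower (60%) and 6 higher (40%), against 36.5% and 45.6% of all tested genes (median -0.53). Of the 15, 3 were higher with RLE factors and 2 with total counts. Tufm, the elongation factor that brings aminoacyl-tRNA, stood at 5.61 ± 6.90 CPM with SR1848 and 35 ± 19 CPM with DMSO (log2 fold change -2.63), and Slirp (-2.83) and Taco1 (-2.21), which act on mitochondrial messages, were lower too. Mtif3, an initiation factor, was higher (0.86, but -0.11 without a call under the oocyte scaling). Of 21 factors of mitochondrial DNA and RNA 9 were lower (42.9%) and 9 higher (42.9%), shares near those of all tested genes (median 0.095). Tfb2m, needed to start mitochondrial transcription, stood at 112 ± 37 CPM with SR1848 and 336 ± 85.3 CPM with DMSO (log2 fold change -1.59). Ssbp1, the single-strand DNA binding protein, was lower (-3.16) and Supv3l1, an RNA helicase, higher (1.51, and 0.63 under the oocyte scaling).

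Of 9 regulators of nuclear genes for mitochondria 7 were lower and 1 higher, against 36.5% and 45.6% of all tested genes (median -1.43). Gabpa, the DNA-binding subunit of the factor whose motif is marked above, stood at 71.1 ± 70.1 CPM with SR1848 and 710 ± 164 CPM with DMSO (log2 fold change -3.32). In 79 of 80 SR1848 embryos it was below every control, where 15.1% of all tested genes had at least 40 such embryos. The Gabpa partners Gabpb2 (-3.63) and Gabpb1 (-1.43), and Nrf1 (-1.28), Yy1 (-1.75), Pprc1 (-1.88) and Hcfc1 (-0.46), were lower as well on the log2 scale. Myc was higher (0.83), and under the oocyte scaling no regulator was called higher.

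Related nuclear lists had medians close to that of the mitochondrial ribosomal proteins. Of 80 cytosolic ribosomal proteins 64 were lower and 6 higher, with a median of -1.04. Of 82 nuclear genes of oxidative phosphorylation 51 were lower and 13 higher, with a median of -0.96, beside -0.99 for the members. Of all tested genes 36.5% were lower and 45.6% higher. The 13 mitochondrially encoded messages, which the mitochondrial ribosome translates, had the other sign with TMM: 10 were called higher and 0 lower. The number called higher depended on the setting. It was 3 with total counts (where 40.1% of all tested genes were higher) and 5 with depth as a covariate. It was 7 with RLE factors, DESeq2 or limma-voom, and 13 with upper-quartile factors. With TMM the median of the 13 messages was 0.43, beside 0.24 for all tested genes, of which 45.6% were called higher. Under the oocyte scaling 11 were lower and 1 higher, where 57.3% of all tested genes were lower. Their median lay above that of all genes by 0.19 with TMM and by 0.22 with the oocyte scaling. Of these lists none was tested against the members.

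**Figure D5:**
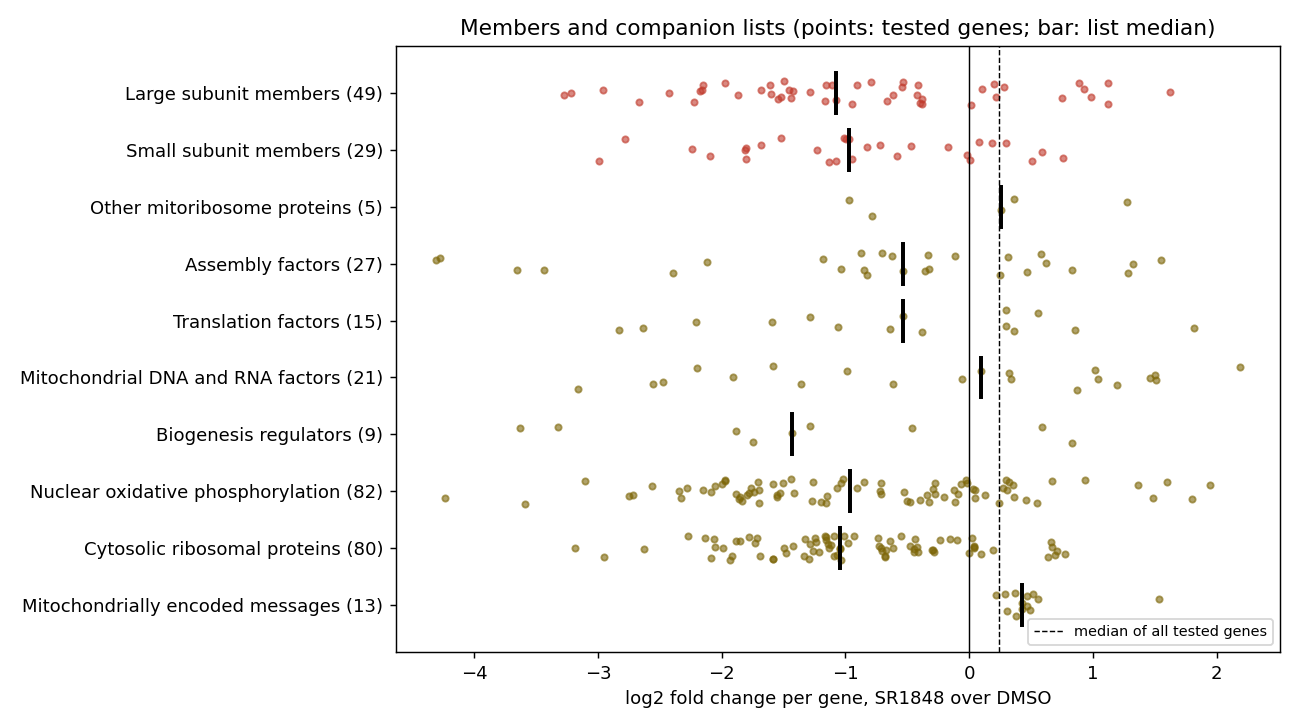
Log2 fold change of each tested gene, SR1848 over DMSO, for the 2 subunits (red) and 8 companion lists; the number of tested genes stands in brackets, bars are medians and the dashed line is the median of all tested genes. The medians of members (-1.07 and -0.97) lie close to those of cytosolic ribosomal proteins (-1.04) and nuclear oxidative phosphorylation genes (-0.96). Under the oocyte scaling 11 of the 13 mitochondrially encoded messages were called lower, as were 57.3% of all tested genes.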

How the data were processed

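Single 2-cell embryos were profiled with SR1848 (80) and with DMSO (50), grouped by their titles. The submitters' processing notes name kallisto 0.46.1, Trim Galore 0.6.2, bcl2fastq, DESeq2 1.32.0 under R 3.5.1, and mm10 and hg19 as builds without saying for what. The authors deposited estimated counts per transcript, 28.5% of them not whole, a log2 table of the same counts, which was used only for checking, and a comparison table. In that deposited table the log2 fold changes and adjusted p-values are the authors' own, its base mean is on a signal scale and its test score was not used.

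Estimated counts were summed per gene with the deposited identifiers or GENCODE M21, which named 345 transcripts, and rounded. Transcripts without a gene held 0.735% of counts and were left out. Genes kept by filterByExpr were tested with edgeR 4.0.16 in R 4.3.3 (TMM, robust glmQLFit, glmQLFTest, two-sided, Benjamini-Hochberg, threshold 0.05), and the code was tested on simulated data. Transcripts were tested in the same way over 26047 transcripts. SEs were obtained by dividing the absolute log2 fold change by the square root of F. TPM used annotated transcript lengths. Lists, classes and subunit sums were given no p. Tables were handled with pandas 2.3.3 and figures drawn with matplotlib 3.10.9.

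Members, lists, motifs and alternatives were chosen with earlier results of these data known. Genes described in full are, per subunit, the 8 largest falls and 5 largest rises called at a mean of at least 5 CPM, the 3 with the most counts, the 3 highest per length, the 2 closest to 0, the S18 paralogs and a few fixed members, and per companion list the 3 with the smallest p and the one with the most counts. Other members, and regulators beside these, are named after their values were seen. Alternatives were RLE, upper-quartile, total-count and oocyte-transcript scaling, no filter or one of 5 CPM, DESeq2 1.42.0, limma-voom (limma 3.58.1) and depth as a covariate. Further ones were the embryo number as a block, protein-coding transcripts only, and subunits by structure. Another left out embryos with a total count or a number of detected genes over 3 MADs under the median, which was 1 SR1848 embryo. Testing transcripts one by one, the shared numbers without a block, and leaving out pseudogenes or Mrps26 and Mrps30 were added after seeing the data. Libraries were compared pairwise within groups, and all pairs differed by more than sampling noise (chi-square per gene of 18.4 or more).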

Additional observations from a re-analysis of the deposited data

How the results depend on the processing

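Counts of lower members stayed within 1.5 times of the main count under all alternatives, at 30 to 42 of the large and 18 to 26 of the small subunit symbols. Higher members numbered 1 in the large and 0 in the small subunit under the oocyte scaling, and in the small subunit 2 with total counts, 1 with limma-voom and 2 with the replicate block. The log2 ratios of the sums were -1.57 and -1.18 under the oocyte scaling. The embryo numbers gave no sign of pairing the samples: over 50 shared numbers the median correlation of deviations was 0.019 and 2 exceeded 0.1. Only 1 SR1848 embryo and 0 controls correlated best with their own number. A shared origin with a small effect could go unseen in such correlations. With the replicate block 34 large and 19 small subunit symbols were lower and 9 and 2 higher, against 32, 19, 9 and 3 for the same embryos without it, and neither Mrps26 (0.27) nor Mrps30 (0.064) was called with the block. In those embryos without the block Mrps26 was called (0.66) and Mrps30 was not (0.26), and limma-voom called neither. Over 467 comparisons of 36 named members with 13 alternatives, 403 kept direction and call, 14 lost the call, 8 gained one and 42 changed sign. Signs changed under the oocyte scaling for Mrpl10 (-0.041), Mrpl48 (-0.066), Mrpl18 (-0.66), Mrpl14 (-0.89), Mrpl37 (-0.81), Mrps12 (-0.57), Mrps16 (-0.87), Mrps23 (-0.68), Mrps24 (-0.73), Mrps25 (-0.14), Mrps26 (-0.12) and Mrps30 (-0.25). The others were members without a call, near 0: Mrpl14 (-0.097 with DESeq2, -0.098 with RLE factors, -0.20 with limma-voom, -0.012 with no filter, -0.055 with the replicate block, -0.16 with total counts), Mrpl37 (-0.0072, -0.0074 and -0.061 with DESeq2, RLE and total counts), Mrps12 (-0.34 with limma-voom and -0.044 with the block), Mrps16 (-0.099, -0.097, -0.19, -0.17, -0.037, -0.052, -0.016 and -0.011 with DESeq2, RLE, total counts, limma-voom, no filter, the block, depth and coding transcripts), Mrps24 (-0.0033, -0.0033, -0.080, -0.13, -0.21 and -0.11 with DESeq2, RLE, total counts, limma-voom, the block and the same embryos without it) and Mrps27 (0.22, 0.051, 0.014, 0.11 and 0.069 with upper-quartile factors, the 5 CPM filter, depth, coding transcripts and the shared numbers without a block). The causes were not tested. Relative abundances do not give the amount of message per embryo, and members near 1 CPM rest on few reads.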
